A study of Mus musculus with 6 samples.

Results

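The 10 genes described here encode core subunits and cofactors of the Polycomb repressive complexes. They are Ezh1, Ezh2, Eed, Suz12, Jarid2, Mtf2, Phf1, Phf19, Bmi1 and Rnf2, taken by symbol from a table of 15861 genes, and all 10 were found in it and kept by the filter on low counts. They were measured by sequencing of polyadenylated RNA from germinal centre B cells of mice, sorted as B220+ GL7+ FAS+ cells. The KO group held 3 libraries from C57BL/6 mice with floxed Lsd1 alleles and 1 copy of a Cre transgene or allele labelled Cgamma-cre (Cgamma-cre+/-; Lsd1 f/f). The 3 WT libraries came from C57BL/6 mice whose Lsd1 alleles were floxed too but which had no Cre (Lsd1 f/f). The design text calls the mice littermates, with a mouse for each library, and the labels give neither age nor immunisation. The labels do not say in which cells this Cre is active, and no animals with Cre and without floxed alleles were analysed here.

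Polycomb proteins keep genes silent through marks on histones. PRC2 methylates H3K27: EZH2 or its paralogue EZH1 is the methyltransferase, and EED and SUZ12 are needed for its activity. PRC2 occurs in alternative forms, with a Polycomb-like protein (MTF2, PHF1 or PHF19) or with JARID2 and AEBP2, and these partners help to bring it to CpG-rich DNA. PRC1 ubiquitinates histone H2A through RNF2 (RING1B) or RING1, and BMI1 is a partner of these ligases. In germinal centre B cells EZH2 is abundant and is needed for the germinal centre to form, and it holds the cell cycle inhibitor Cdkn1a and plasma cell genes down, whereas EZH1 is the form typical of resting cells. Lsd1, now Kdm1a, encodes another chromatin repressor, a demethylase of histone H3 that is recruited by BCL6 in these cells.

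The promoters of a few of these genes are shown because E2F transcription factors, which drive genes of cycling cells, are known regulators of Ezh2. Each window runs from 250 bases before the start of the gene to 20 bases after it, from RefSeq on GRCm38.p6 (the same build as mm10), and is printed 5′ to 3′ on the gene's own strand. Capitals mark a match to an E2F-type motif, searched on both strands as TTTCCCGC, TTTCGCGC, TTTGCCGC and TTTGGCGC. Ezh2 (chr6:47595011-47595280, minus strand), Suz12 (chr11:79992856-79993125, plus strand) and Phf19 (chr2:34913957-34914226, minus strand) held a match, and Ezh1 (chr11:101226444-101226713, minus strand), the paralogue of Ezh2, held none.
Ezh2: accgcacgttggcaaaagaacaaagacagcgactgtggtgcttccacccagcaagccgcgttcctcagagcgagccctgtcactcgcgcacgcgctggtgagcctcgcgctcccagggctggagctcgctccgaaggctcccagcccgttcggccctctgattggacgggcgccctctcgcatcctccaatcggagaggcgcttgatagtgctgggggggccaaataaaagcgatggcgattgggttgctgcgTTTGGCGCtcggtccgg
Ezh1: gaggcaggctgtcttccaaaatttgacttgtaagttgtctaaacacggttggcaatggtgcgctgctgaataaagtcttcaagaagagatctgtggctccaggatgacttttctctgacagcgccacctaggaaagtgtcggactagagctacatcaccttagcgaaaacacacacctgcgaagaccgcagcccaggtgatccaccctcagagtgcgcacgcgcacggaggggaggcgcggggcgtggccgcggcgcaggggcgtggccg
Suz12: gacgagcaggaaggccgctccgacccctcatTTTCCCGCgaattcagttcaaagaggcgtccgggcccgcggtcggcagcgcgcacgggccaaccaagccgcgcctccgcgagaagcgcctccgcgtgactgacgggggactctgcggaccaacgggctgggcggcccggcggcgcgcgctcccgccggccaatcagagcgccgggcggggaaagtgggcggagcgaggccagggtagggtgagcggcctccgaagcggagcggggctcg
Phf19: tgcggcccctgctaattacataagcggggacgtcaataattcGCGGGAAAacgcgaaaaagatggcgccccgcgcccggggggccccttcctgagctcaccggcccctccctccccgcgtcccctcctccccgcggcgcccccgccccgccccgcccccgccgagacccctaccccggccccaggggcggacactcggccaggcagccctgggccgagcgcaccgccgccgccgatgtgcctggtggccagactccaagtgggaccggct

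The searched windows also took in the bases up to 50 after the start, and a promoter with overlapping motifs was counted as 1. Of the 10 genes, which have 12 windows, 3 held a match, each with 1. Of all 32851 windows in the RefSeq table, 2.26% held one. The match in Ezh2 begins at base 4 of the gene, that in Suz12 lies 219 bases before the start, and that in Phf19 lies 208 bases before it. In all 7 strings were searched together, and the 4 above were grouped as a motif, and the windows to print chosen, after their matches had been seen. Of the other 3, CCCGCC was found in 8 of the 10 genes and in 35.3% of all windows, TTCCCGCC in 0 of the 10 and 2.19%, and a longer extended E2F consensus string in 0 of the 10 and 0.0548%, so the count of 3 genes depends on which strings are grouped. Such a match is a description of letters and not of binding. The genes also shared CpG-rich promoters: 11 of their 12 annotated windows held more CpG dinucleotides than the median window (7), the exception being a second Mtf2 start with 2. Suz12 had 41, Phf19 38 and Ezh2 31 CpG dinucleotides. Each of the 4 strings holds a CpG itself, and the share of windows with a match was not taken over windows of like CpG content.

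Depth was 12.3, 14.3 and 13.1 M counts in the KO libraries and 3.79, 5.52 and 3.39 M counts in the WT libraries, a 3.13-fold difference of the means, so that genotype and depth cannot be told apart. Each of the 10 genes had between 30 and 4030 counts in a library. Kdm1a, the deleted gene, was read at 81.9, 33.0 and 21.8 CPM (read counts scaled to the TMM-normalised library size) in KO and at 134, 85.2 and 92.6 CPM in WT. Its log2 fold change of -1.19 (SE 0.50) missed the threshold (edgeR adjusted p = 0.393). The library labelled KO 1 lay close to the lowest WT library, and without it the log2 fold change was -1.93 (edgeR adjusted p = 0.0169). KO 1 is singled out here by its Kdm1a level itself, so the larger change follows from that choice. With any other library left out, the log2 fold change lay between -1.32 and -0.88 and did not pass (edgeR adjusted p of 0.282 or more). Results below include the library labelled KO 1 unless said otherwise. The sorted identity was read from 15 germinal centre B cell markers, whose sum was 7111, 9637 and 9081 CPM of library totals in KO and 8793, 12009 and 10193 CPM in WT. Cd79b and Ms4a1 were among the most abundant of them. Of 14 tested, 11 had log2 fold changes below 0, with a median of -0.20. At an unadjusted p under 0.05 edgeR had 3 lower and 0 higher in KO (smallest adjusted p = 0.334). Of all genes tested, 5.5% were lower and 7.1% higher at that p.

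No Polycomb gene passed the test between genotypes. At an adjusted p under 0.05, 0 of the 10 genes were called by edgeR, against 0.0824% of the 10926 genes tested, and the counts by DESeq2 and limma-voom were 0 as well. At an unadjusted p under 0.05, edgeR, DESeq2 and limma-voom each had 2 of the 10. In edgeR these were Jarid2 and Suz12, both higher in KO, against 7.1% of all genes on that side, and 0 of the 10 were lower, against 5.5%. Log2 fold changes were above 0 for 7 genes and below 0 for 3. Their median was 0.08, beside 0.01 over all genes tested. The sign changed in 3 of 17 alternatives for Ezh2, 2 for Eed, 4 for Mtf2, 3 for Phf1 and 6 for Rnf2, and in none for the other 5 genes. The groups did not overlap for 3 of the 10, Suz12, Jarid2 and Ezh1, all higher in KO, where 10% of all genes were separated in that direction and 18% in either. With 3 mice per group, p-values reflect the spread between these libraries, and in bulk samples more cells of a type and more RNA per cell cannot be told apart.

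**Figure D1:**
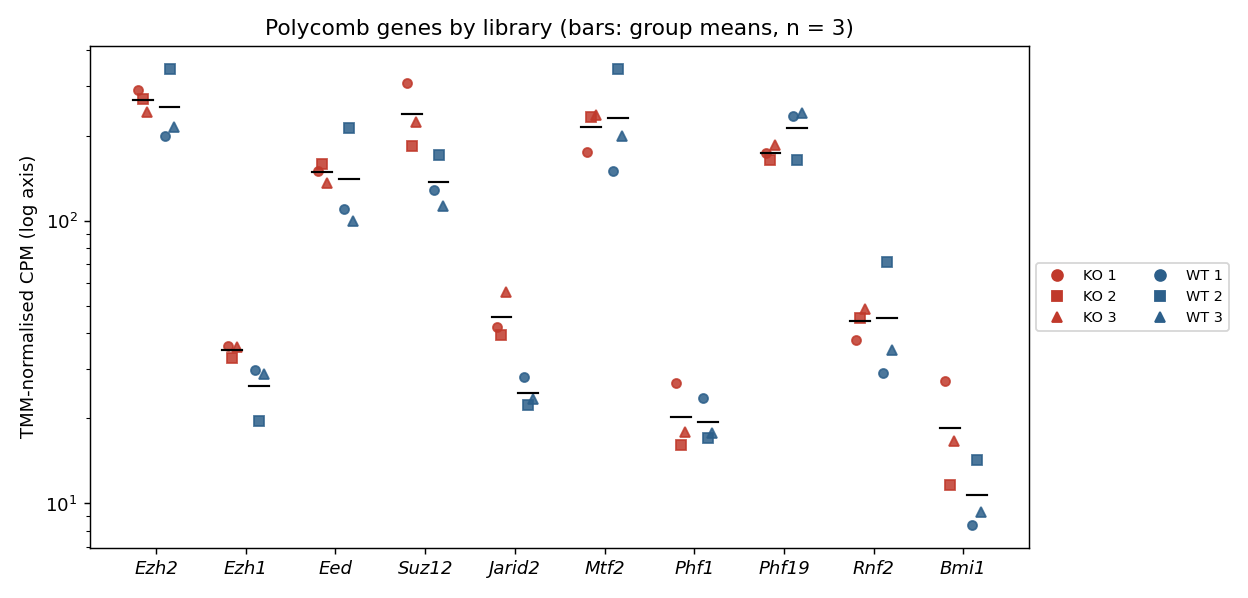
TMM-normalised CPM of the 10 Polycomb genes on a log axis, with KO libraries in red left of WT libraries in blue, a marker shape for each replicate number and a bar at each group mean (n = 3). Suz12, Jarid2 and Ezh1 have all KO libraries above all WT libraries, and for Ezh2, Eed, Mtf2 and Rnf2 the WT 2 library is the highest of the 6.

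Per kilobase of exon the genes fell into an abundant and a scarce tier in both genotypes. Phf19, Mtf2, Ezh2, Eed and Suz12 formed the upper tier, with 22.7 CPM per kb or more in every library, and Rnf2, Phf1, Ezh1, Bmi1 and Jarid2 the lower, with 17.3 or less. In KO the order began with Suz12 at 48.0 ± 12.6 CPM per kb, followed by Ezh2 at 40.1 ± 3.69, Eed at 38.7 ± 2.96, Mtf2 at 37.6 ± 6.04 and Phf19 at 34.4 ± 2.09 (SD, n = 3). In WT the same 5 genes read 27.7 ± 6.12 for Suz12, 37.8 ± 12.0 for Ezh2, 36.7 ± 16.2 for Eed, 40.5 ± 17.7 for Mtf2 and 42.1 ± 8.38 for Phf19. Neighbours within this tier lay within their spread of each other. Rnf2 came next at 10.7 ± 1.33 CPM per kb in KO and 10.9 ± 5.59 in WT. Phf1 followed at 5.81 ± 1.63 in KO and 5.59 ± 1.04 in WT. Jarid2 averaged 4.71 ± 0.90 in KO and 2.53 ± 0.32 in WT, Ezh1 4.69 ± 0.27 in KO and 3.49 ± 0.75 in WT, and Bmi1 4.65 ± 2.0 in KO and 2.69 ± 0.79 in WT, so these 3 shared the bottom of the order. Lengths are those of all annotated exons merged, and transcripts that use fewer exons would read too low.

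Among the catalytic subunits, Ezh2, the methyltransferase of dividing cells, gave 291, 270 and 242 CPM in KO and 199, 344 and 215 CPM in WT. The KO libraries lay inside the WT range. Its log2 fold change was 0.08 (SE 0.24, 95% interval -0.44 to 0.60, edgeR adjusted p = 0.931), and the sign turned to -0.11 once length and GC trends were removed. Ezh1, the paralogue of resting cells, held 36.1, 32.6 and 35.9 CPM in KO and 29.7, 19.5 and 28.7 CPM in WT. Every KO library was above every WT library, with KO 2 and WT 1 the nearest. The log2 fold change of Ezh1 was 0.43 (SE 0.23, 95% interval -0.07 to 0.94, edgeR adjusted p = 0.464), and 0.26 without WT 2.

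Ezh2 exceeded Ezh1 in every library on the scale per kilobase. The ratio of Ezh2 to Ezh1 was 8.96, 9.23 and 7.51 in KO and 7.45, 19.6 and 8.36 in WT. WT 2 stood apart and the other libraries overlapped. The mean log2 ratio was 3.09 ± 0.16 in KO and 3.42 ± 0.76 in WT, a difference of -0.33 that became 0.11 without WT 2. No test was run on ratios among these genes, since they were chosen with earlier results in view.

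**Figure D2:**
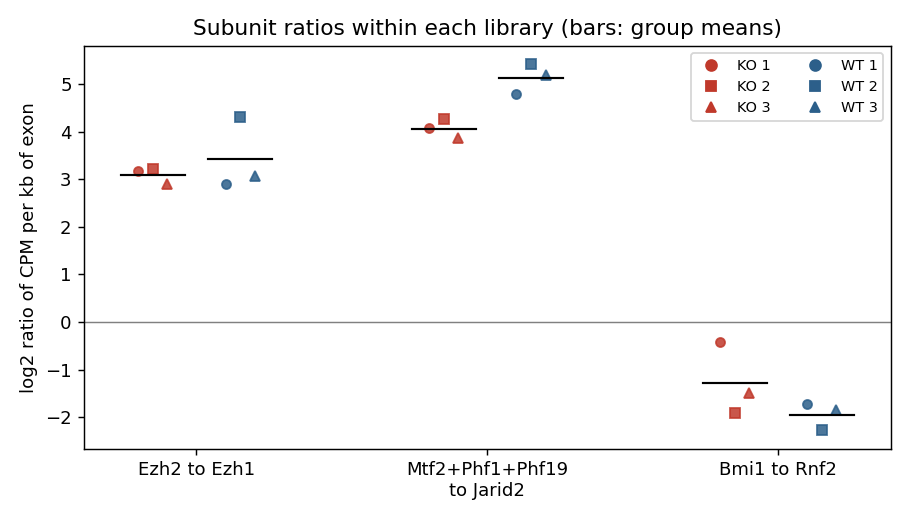
Log2 ratios of CPM per kb of exon within each library, KO in red left of WT in blue, with bars at group means (n = 3). The ratio of summed Mtf2, Phf1 and Phf19 to Jarid2 is lower in all 3 KO libraries than in all 3 WT libraries, while the Ezh2 to Ezh1 and Bmi1 to Rnf2 ratios overlap between the groups.

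Of the 2 subunits that every PRC2 complex needs, Eed, which reads methylated H3K27, was seen at 150, 158 and 136 CPM in KO and at 110, 212 and 100 CPM in WT. As for Ezh2, the WT libraries lay on both sides of the KO libraries (log2 fold change 0.07 with an SE of 0.28, edgeR adjusted p = 0.948). Suz12, the scaffold of the complex, read 306, 184 and 223 CPM in KO and 128, 171 and 112 CPM in WT. All KO libraries were above all WT libraries, with the library labelled KO 1 highest and KO 2 nearest to WT 2. The log2 fold change of Suz12 was 0.79 (SE 0.25, 95% interval 0.25 to 1.34) and did not pass over all genes (edgeR adjusted p = 0.278). It was 0.57 without KO 1. Suz12 passed only in limma-voom with quality weights (adjusted p = 0.0335), and its adjusted p ran from 0.0335 to 0.953 over 17 alternatives.

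The PRC2 cofactors had log2 fold changes of both signs. Jarid2, a cofactor that helps PRC2 reach its targets, gave 42.0, 39.5 and 55.8 CPM in KO and 28.1, 22.3 and 23.4 CPM in WT. The groups did not overlap, and KO 3 was highest. Jarid2 had the largest log2 fold change of the 10 genes, 0.90 (SE 0.23, 95% interval 0.39 to 1.40, edgeR adjusted p = 0.201). Its log2 fold change lay between 0.71 and 1.02 in 17 alternatives and passed in 1 of them, limma-voom with quality weights (adjusted p = 0.036). Adjusted p ran from 0.036 to 0.903 over those alternatives.

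The Polycomb-like genes did not share this pattern. Mtf2, whose protein binds unmethylated CpG-rich DNA, held 175, 233 and 236 CPM in KO and 150, 344 and 199 CPM in WT (log2 fold change -0.11 with an SE of 0.29, edgeR adjusted p = 0.925). Phf19, a member of the same family, had 173, 163 and 184 CPM in KO and 234, 164 and 239 CPM in WT. WT 2 was at the level of the KO libraries and the other WT libraries were above them (log2 fold change -0.29 with an SE of 0.21, 95% interval -0.75 to 0.17, edgeR adjusted p = 0.598). Phf1, the scarcest of the family, read 26.7, 16.1 and 17.9 CPM in KO and 23.6, 17.0 and 17.8 CPM in WT, with the replicates numbered 1 highest in each group (log2 fold change 0.06 with an SE of 0.28, edgeR adjusted p = 0.959).

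Summed per kilobase, Mtf2, Phf1 and Phf19 exceeded Jarid2 by 16.8, 19.2 and 14.5 times in KO and by 27.5, 42.6 and 36.3 times in WT. The groups did not overlap on this ratio. Its mean log2 value was 4.06 ± 0.20 in KO and 5.13 ± 0.32 in WT (SD, n = 3), a difference of -1.06 that ran from -1.24 to -0.92 when each library was left out in turn. Jarid2 made up 5.62%, 4.95% and 6.46% of the summed level of these 4 cofactors in KO and 3.51%, 2.29% and 2.68% in WT. Mtf2 and Phf19 made up the most of it in every library. The Mtf2 share was 39.9%, 49.9% and 46.5% in KO and 31.9%, 60.4% and 38.8% in WT. Jarid2 alone was already apart between the groups, so the ratio and the Jarid2 share largely restate that difference and are no separate result.

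In PRC1, Rnf2, the ubiquitin ligase, gave 38.0, 45.3 and 48.8 CPM in KO and 28.9, 71.5 and 34.9 CPM in WT (log2 fold change -0.04 with an SE of 0.32, edgeR adjusted p = 0.974). Its sign depended on WT 2, without which the log2 fold change was 0.46. Bmi1, the PCGF partner of the ligase, held 27.2, 11.6 and 16.7 CPM in KO and 8.40, 14.3 and 9.35 CPM in WT. The library labelled KO 1 was highest, and WT 2 lay above KO 2. Bmi1 had a log2 fold change of 0.78 (SE 0.36, 95% interval -0.01 to 1.57, edgeR adjusted p = 0.401), and 0.40 without KO 1. The ratio of Bmi1 to Rnf2 per kilobase was 0.744, 0.267 and 0.355 in KO and 0.302, 0.207 and 0.278 in WT, with overlap.

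The 10 genes were also compared with each other across the 6 libraries. Closeness was measured as the root mean square difference of log2 CPM, each gene centred on its mean over the libraries. Over 45 pairs the median was 0.50. Between 7372 other genes and Ezh2 the median was 0.38, and for Ezh1 it was 0.41. The 10 genes as a set were thus not closer to each other than those genes were to Ezh2 or Ezh1. The closest pairs were Mtf2 and Rnf2 at 0.0976, Ezh2 and Eed at 0.13, and Suz12 and Bmi1 at 0.18. Ezh2, Eed, Mtf2 and Rnf2 all peaked in WT 2, Suz12 and Bmi1 in KO 1, and Jarid2 in KO 3. Over the 3583 genes lowest in GC content, WT 2 exceeded the mean of WT 1 and WT 3 by a median of 0.64 log2 units. Ezh2, Mtf2, Rnf2, Suz12 and Bmi1 belong to these genes and Eed does not. The part of GC content in the peaks was not tested. Bmi1 and Phf19 were the least alike, at 0.73. Bmi1 had the widest range over the libraries, 1.67 log2 units, and Phf19 the narrowest, 0.55.

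**Figure D3:**
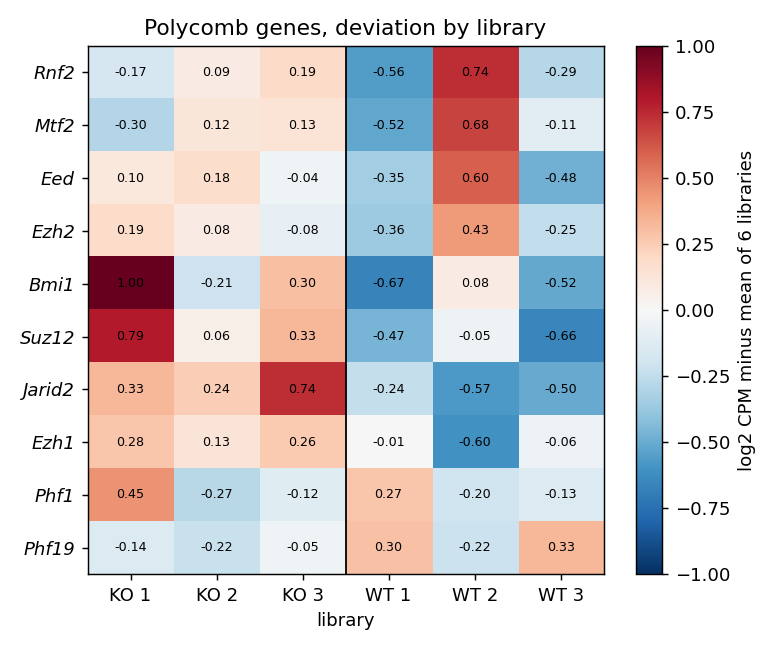
Log2 CPM of each of the 10 genes minus its mean over the 6 libraries, KO libraries left of WT libraries, with the value in each cell. Rnf2, Mtf2, Eed and Ezh2 are highest in WT 2 (0.74, 0.68, 0.60 and 0.43), Bmi1 and Suz12 in KO 1 (1.0 and 0.79) and Jarid2 in KO 3 (0.74).

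The genes most like Ezh2 by the same measure, among 7372 other genes with a mean log2 CPM of at least 4, were Lin9 (0.0459), Arcn1 (0.0495), Nudcd2 (0.05), Ccz1 (0.0603) and Hmgb1 (0.061), where the median gene stood at 0.38. Lin9 encodes a subunit of the DREAM and MuvB complexes that regulate cell cycle genes, Arcn1 a coat protein of Golgi vesicles, and Hmgb1 a DNA-bending chromatin protein. Nearest to Ezh1 were Zbtb21 (0.0658), Atp8b2 (0.0893), Dpagt1 (0.0928), Dnajc27 (0.093) and Fam53c (0.095), with a median of 0.41. The libraries differ in depth and in base composition effects, whose part in this likeness was not tested. Likeness is thus a description of 6 libraries.

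Marker genes of other cell types and states were read in the same libraries. Of 11 resting and memory B cell markers, all 11 were above 0 in KO, with a median log2 fold change of 1.40, and 1 passed. Of all genes tested, 51.3% were above 0 and 0.0824% passed. At an unadjusted p under 0.05, 8 markers were higher and 0 lower (edgeR), against 7.1% and 5.5% of all genes. The groups did not overlap for 7, all higher in KO, where 10% of all genes were separated in that direction. Relative to WT, the mean log2 level of these markers was 2.29 in KO 1, 1.10 in KO 2 and 0.89 in KO 3, against -0.04 to 0.06 in the WT libraries. KO 1 was also the highest library for Suz12, Bmi1, Ezh1 and Phf1. Their part in those values was not tested. Fcer2a and Cd38 were among the most abundant of these markers, and Cd38 held 126, 35.1 and 67.6 CPM in KO and 17.6, 31.1 and 39.3 CPM in WT.

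Proliferation genes gave less contrast. Of 28, none passed in edgeR, where 0.0824% of all genes did. The median log2 fold change was -0.14. The mean of the 28 stood at 0.04, -0.05 and -0.22 log2 units from the WT mean in KO 1, KO 2 and KO 3, against -0.07 to 0.08 in WT. At an unadjusted p under 0.05, 0 of the 28 were higher and 1 was lower (edgeR), against 7.1% and 5.5% of all genes. Mki67, Top2a and Mcm5 were the most abundant of them. The 14 macrophage markers summed to 246, 220 and 3405 CPM in KO and 375, 1446 and 2838 CPM in WT, led by Vcam1, Hmox1 and Csf1r. KO 3 was the highest library both for Jarid2 and for these markers, and their part in the Jarid2 values was not tested. Plasma cell markers, led by Jchain, Mzb1 and Xbp1, summed to 2599, 2984 and 3283 CPM in KO and 2258, 3249 and 2817 CPM in WT. T cell markers, led by Lck, Cd2 and Cd4, summed to 316, 351 and 316 CPM in KO and 345, 330 and 418 CPM in WT, while Cd3d and Cd3g, which define T cells, reached no more than 15 counts.

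Counts of several of the genes are less certain because exons of other genes lie on the opposite strand and no strand setting is given in the sources used here. Phf1 shares 1370 of its 3486 exon bases with Cuta, Mtf2 395 of 5698 with Tmed5, and Rnf2 158 of 4127 with Trmt1l. Ezh2, Eed and Suz12 share 174, 261 and 178 bases with noncoding transcripts. Ezh1, Jarid2, Phf19 and Bmi1 overlapped no annotated exon of another gene.

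The other genes of the pathway gave no call either. Of 38 further Polycomb genes listed, 35 were in the table and 34 were tested, and 0 passed in either direction by edgeR, DESeq2 or limma-voom. As edgeR called only 0.0824% of all genes tested, 0 calls in a list of this size says little about its genes. At an unadjusted p under 0.05 edgeR had 4 higher and 3 lower, DESeq2 8 and limma-voom 7 in all, where edgeR had 7.1% of all genes higher and 5.5% lower. The median log2 fold change was 0.03. The groups did not overlap for 2 genes higher and 3 lower in KO, where 10% of all genes were separated on the higher and 7.95% on the lower side.

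Among 6 further PRC2 genes, Rbbp4, a histone-binding subunit shared with other chromatin complexes, gave 612, 858 and 715 CPM in KO and 970, 1190 and 1166 CPM in WT. All KO libraries were below all WT libraries (log2 fold change -0.61 with an SE of 0.21, edgeR adjusted p = 0.296). Its close relative Rbbp7 had a log2 fold change of 0.14 (SE 0.21). Aebp2, which joins PRC2 together with Jarid2, held 91.5, 52.6 and 74.6 CPM in KO and 53.8, 43.0 and 41.8 CPM in WT, with KO 2 just under WT 1 (log2 fold change 0.66 with an SE of 0.24, edgeR adjusted p = 0.313). Epop, a PRC2 cofactor, and Lcor, whose locus also encodes a cofactor, were low, at 10.8 CPM or less in every library, with log2 fold changes of -0.43 for Epop (SE 0.40) and 0.55 for Lcor (SE 0.60).

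Among 25 further PRC1 genes, 22 were tested. Cbx2, a chromodomain protein that reads methylated H3K27 and compacts chromatin, held 16.0, 19.1 and 13.9 CPM in KO and 36.5, 24.4 and 31.8 CPM in WT. It had the smallest p of all 34 tested (log2 fold change -0.91 with an SE of 0.25, edgeR adjusted p = 0.221), and passed in limma-voom with quality weights (adjusted p = 0.0332), with a range of 0.0332 to 0.903 over 17 alternatives. Ring1, the paralogue of Rnf2, read 21.7, 28.7 and 24.8 CPM in KO and 32.6, 35.0 and 40.8 CPM in WT, again without overlap (log2 fold change -0.52 with an SE of 0.22, edgeR adjusted p = 0.355). On the other side, Phc3, a polyhomeotic subunit, had a log2 fold change of 0.84 (SE 0.30), Scmh1, a sex comb protein, one of 0.74 (SE 0.27), and Mga, a subunit of a variant PRC1 complex, one of 0.64 (SE 0.27). Of these 3 the groups were apart for Scmh1 only, at 25.1 to 32.5 CPM in KO and 12.1 to 22.3 CPM in WT.

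Of the genes that oppose Polycomb, none of the 6 tested passed in edgeR, where 0.0824% of all genes did. At an unadjusted p under 0.05 edgeR had 0 of them, against 12.6% of all genes. Their median log2 fold change was 0.25, beside 0.01 over all genes tested. The H3K27 demethylase genes Kdm6a (0.31, SE 0.24) and Kdm6b (0.25, SE 0.32) had log2 fold changes above 0. Bap1, which encodes a deubiquitinase of H2A, had one of -0.35 (SE 0.21), and its cofactors Asxl1 and Asxl2 had 0.25 (SE 0.22) and 0.29 (SE 0.23).

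**Figure D4:**
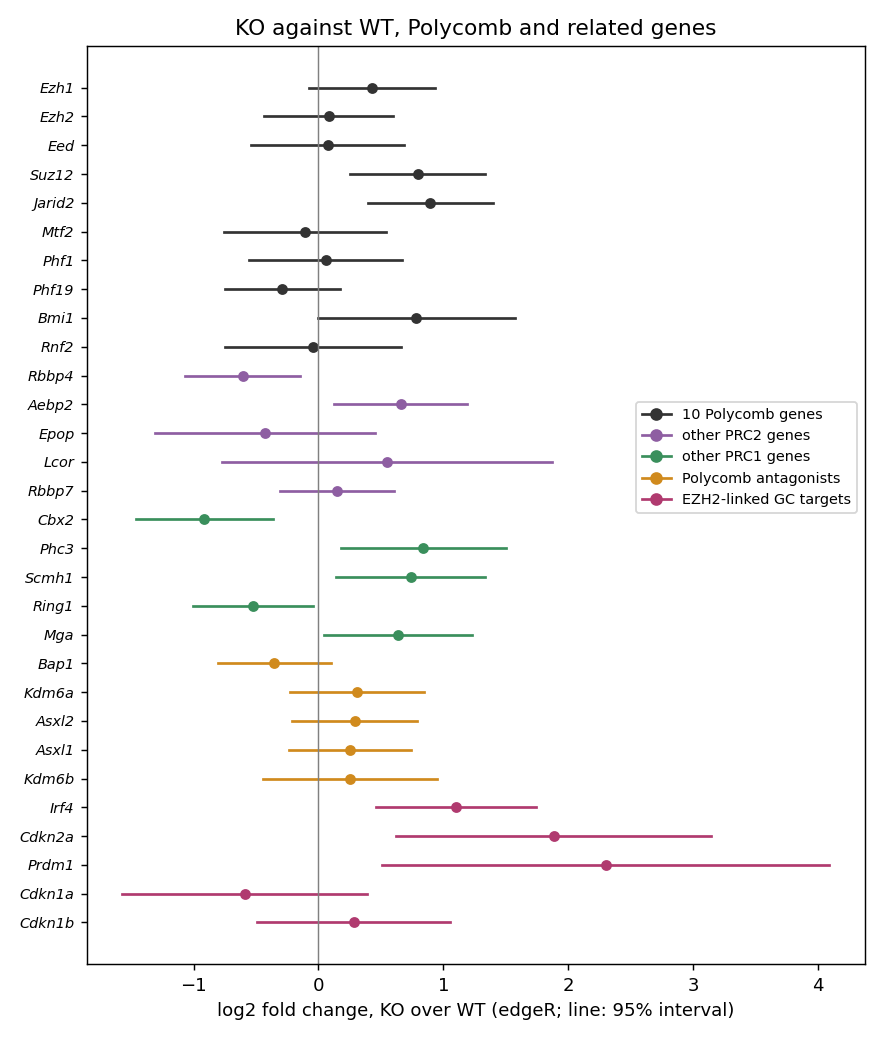
Log2 fold change of KO over WT (edgeR) with 95% interval for the 10 Polycomb genes and for the genes with the smallest p among other PRC2 genes, other PRC1 genes, Polycomb antagonists and EZH2-linked germinal centre targets. Jarid2 (0.90) and Suz12 (0.79) are those of the 10 whose intervals lie above 0. Among the others, Aebp2 (0.66), Phc3 (0.84), Scmh1 (0.74), Mga (0.64), Cdkn2a (1.88), Prdm1 (2.30) and Irf4 (1.10) have intervals above 0. Cbx2 (-0.91), Rbbp4 (-0.61) and Ring1 (-0.52) have intervals below 0, and no gene shown passed the adjusted test.

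Genes known to be silenced by Polycomb were read beside these subunits. Cdkn2a, the locus of the cell cycle inhibitor INK4A and of ARF and a classic target of Bmi1 and Ezh2, gave 8.13, 13.1 and 7.79 CPM in KO and 4.99, 2.15 and 0.62 CPM in WT. All KO libraries were above all WT libraries, on 107, 186 and 109 counts in KO and 19, 11 and 2 in WT. The log2 fold change was 1.88 (SE 0.57, 95% interval 0.62 to 3.14, edgeR adjusted p = 0.277), and it ran from 1.45 without WT 3 to 2.71 without WT 1 when each library was left out in turn. Cdkn1a, another inhibitor held down by EZH2, had 3.04, 3.95 and 3.86 CPM in KO and 8.14, 3.32 and 4.99 CPM in WT (log2 fold change -0.59 with an SE of 0.45, edgeR adjusted p = 0.617). Cdkn2b, next to Cdkn2a, had at most 10 counts in a library and was not tested.

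The plasma cell regulators Irf4 and Prdm1, which carry H3K27 methylation in germinal centre B cells, differed in spread. Irf4 held 104, 49.3 and 85.5 CPM in KO and 46.7, 30.5 and 34.3 CPM in WT (log2 fold change 1.10 with an SE of 0.29, edgeR adjusted p = 0.213). All KO libraries lay above all WT libraries, KO 2 by the least. Prdm1 gave 26.9, 3.18 and 14.3 CPM in KO and 4.20, 3.13 and 1.56 CPM in WT, so that KO 2 lay within the WT range (log2 fold change 2.30 with an SE of 0.77, edgeR adjusted p = 0.305). Without the library labelled KO 1 the log2 fold change of Prdm1 was 1.54. Cdkn1b, an inhibitor of cyclin-dependent kinases, had a log2 fold change of 0.28 (SE 0.35). Of the 5 tested targets, 0 passed by edgeR, DESeq2 or limma-voom, where edgeR called 0.0824% of all genes. An unadjusted p under 0.05 was found for 3 in edgeR, 3 in DESeq2 and 2 in limma-voom. In edgeR all 3 were higher in KO, where 7.1% of all genes had such a p on that side and 12.6% in either direction.

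The Hox genes, developmental regulators that Polycomb keeps silent outside their embryonic domains, stayed near the limit of detection. Of 39 listed, 12 were in the table, and none had more than 21 counts in a library or passed the filter. Together they had 67, 15 and 19 counts in KO and 3, 2 and 4 counts in WT, or 5.44, 1.05 and 1.45 CPM in KO and 0.79, 0.36 and 1.18 CPM in WT. The library labelled KO 1 was the highest, and KO 2 lay below WT 3. The pooled ratio of KO to WT was 3.58, with a 95% exact binomial interval, for counting error alone, of 1.81 to 8.06. Without KO 1 it was 1.75 (0.82 to 4.14). Hoxb4, a regulator of blood stem cells, led with 21, 3 and 5 counts in KO and 1, 0 and 3 in WT. Hoxa3 had 13, 0 and 1 in KO and 0, 1 and 0 in WT, and Hoxa5 had 9, 1 and 0 in KO and 0, 0 and 1 in WT. Where a gene had 0 counts, up to 3 would be compatible with it, which is 0.209 to 0.243 CPM in KO and 0.543 to 0.885 CPM in WT, so the deeper KO libraries could show Hox transcripts at levels that the WT libraries could not.

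**Figure D5:**
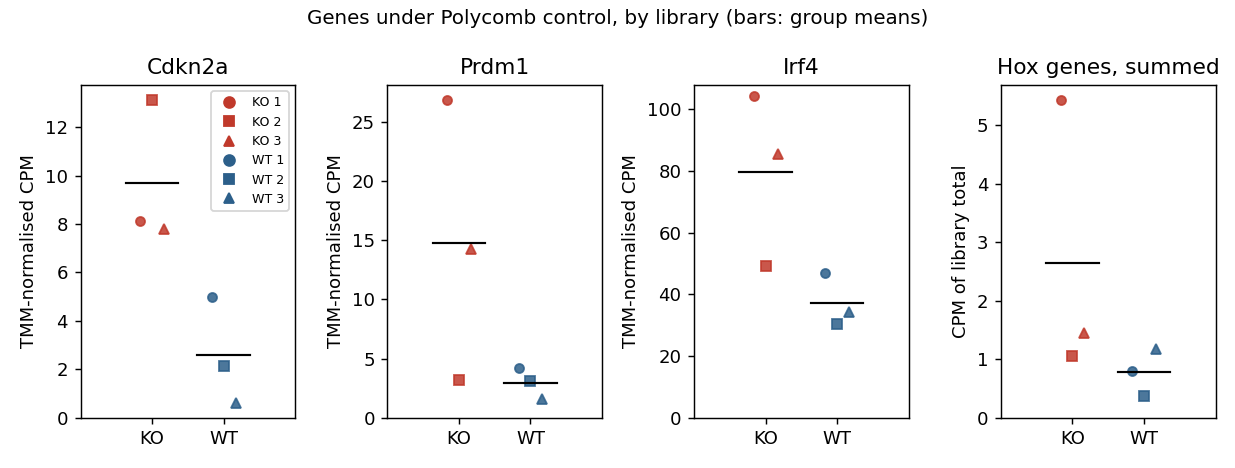
TMM-normalised CPM of Cdkn2a, Prdm1 and Irf4, and the summed CPM of 12 Hox genes, by library, KO in red left of WT in blue, with bars at group means (n = 3) and linear axes from 0. KO libraries lie above WT libraries for Cdkn2a and Irf4, and the KO 1 library holds the highest value for Prdm1 (26.9 CPM), Irf4 (104 CPM) and the Hox sum (5.44 CPM).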

How the data were processed

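RNA of sorted germinal centre B cells was measured in 6 mice, 3 in the KO group and 3 in the WT group. The authors deposited raw read counts per gene symbol, made with CASAVA, STAR 2.5.2 and featureCounts 1.5.2 on mm10 per the submitters' processing notes, and neither annotation nor strand setting is given in the sources used. The deposited counts were tested over all genes with edgeR 4.0.16 in R 4.3.3 (filterByExpr, TMM, robust glmQLFit and glmQLFTest, two-sided, Benjamini-Hochberg adjustment, threshold 0.05). Standard errors were taken from the F statistic. TMM-scaled library sizes gave the CPM of single genes, and plain totals gave the sums over lists. DESeq2 1.42.0, limma-voom in limma 3.58.1 and further alternatives, with other scalings and filters and each library left out in turn, are given in the closing section. The edgeR test with its scalings, replicate block, thinning and length and GC trend, DESeq2 and limma-voom were tested on simulated counts, while the other filters and the fits that leave out a library were not simulated. The simulated counts held no GC trend and no differences in TMM factor between libraries, so they do not show how the fits handle these. Exon lengths, GC content and positions came from GENCODE release M21 of the same build, which matched 98.4% of tested genes. No pair of libraries of a group looked like a repeat of a single library (chi-square per degree of freedom of at least 14.4). The Polycomb genes and the lists were chosen with earlier results of these data known. The naming rule gave the 10 genes, Kdm1a, up to 5 genes of each pathway list by smallest p, the 3 most abundant Hox genes and markers (some markers are not reported here), and the 5 genes most like Ezh2 and Ezh1. The shares of Mtf2, Phf1, Phf19 and Jarid2 among cofactors, the closeness of pairs of Polycomb genes, the promoter motifs and the comparison of WT 2 with the other WT libraries by GC content were all chosen later, with the values in view. Cdkn2b and the separated or defining markers beyond it were named after their values were seen.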

Additional observations from a re-analysis of the deposited data

How the results depend on the processing

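Of 17 alternatives, 16 gave 0 calls among the 10 Polycomb genes and 16 gave 0 among the other Polycomb genes. The exception was limma-voom with quality weights, with 2 (Jarid2 and Suz12) and 1 (Cbx2), in a fit that called 634 genes in all. Among genes under Polycomb control it called 2 (Cdkn2a and Irf4), and the fit with no filter called 1 (Irf4). Over all genes the count was 9, and 10 with DESeq2 size factors, 12 with upper-quartile scaling, 18 with library size alone, 93 with no filter, 13 with the stricter filter, 122 by DESeq2, 6 by limma-voom, 13 after thinning to the smallest total, 19 with the length and GC trend removed and 1 to 24 with each library left out. Kdm1a was -1.19, with a range of -1.93 to -0.88 when each library was left out. It passed only without KO 1, the KO library with the highest Kdm1a level. Library size alone moved the median of all genes to 0.13.

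Suz12, Jarid2, Ezh1, Bmi1 and Phf19 kept their direction in all 17 alternatives. Sign changes had sizes under 0.5 log2 units and none passed. With the length and GC trend removed, Ezh2 was -0.11 and Asxl2 -0.076. With library size alone Mtf2 was 0.024 and Rnf2 0.089, by limma-voom Rnf2 was 0.029, and with quality weights Mtf2 was 0.11 and Rnf2 0.27. When each library was left out, Ezh2 ran from -0.075 to 0.37, Eed from -0.13 to 0.50, Mtf2 from -0.35 to 0.30, Phf1 from -0.20 to 0.20, Rnf2 from -0.29 to 0.46 and Cdkn1b from -0.056 to 0.55. Ezh2, Eed, Mtf2 and Rnf2 were highest without WT 2. The cause was not tested.

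Replicate numbers were not used to pair the samples in the main fit. Deviations of same-numbered libraries from their group means correlated at 0.34, -0.05 and 0.44 across genes. Libraries of different numbers gave 0.20, -0.45, -0.12, 0.14, -0.33 and -0.21, so numbers 1 and 3 had the highest values. KO 2 was closer to WT 1 than to WT 2, and whether the numbers mark pairs could not be told. With the replicate number as a block the count over all genes was 21, that of the 10 Polycomb genes 0, and Rnf2 turned to 0.062. Kdm1a was -1.38 in that fit (edgeR adjusted p = 0.101). The difference in the ratio of Mtf2, Phf1 and Phf19 to Jarid2 was -1.06 without length scaling too.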

Other observations

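The WT 2 library stood apart from the other WT libraries for several Polycomb genes. Its log2 CPM exceeded the mean of WT 1 and WT 3 by 1.17 for Rnf2, 1.014 for Eed, 0.996 for Mtf2, 0.74 for Ezh2, 0.67 for Bmi1 and 0.51 for Suz12, whose longest transcripts hold 39.5%, 47.8%, 38.2%, 44.4%, 40.2% and 41.6% GC. It was lower by 0.57 for Ezh1, 0.53 for Phf19, 0.27 for Phf1 and 0.20 for Jarid2, at 51.2%, 53.9%, 58.6% and 48.8% GC. Over all genes with a known GC content, the median difference was 0.64 in the 3583 genes lowest in GC, -0.025 in the 3582 genes between and -0.37 in the 3582 highest. The middle set runs from 46.3% to 52.7% GC and holds Eed, which WT 2 raised, beside Jarid2 and Ezh1, which it lowered. KO against WT, the lowest and highest sets had median log2 fold changes of 0.18 and -0.20. With a length and GC trend removed, Suz12 was 0.61 and Jarid2 0.72, and both kept their direction. The same fit moved Aebp2 to 0.30, Mga to 0.29, Phc3 to 0.45 and Ring1 to -0.28. Scmh1 was 0.67, Cbx2 -0.65 and Rbbp4 -0.85 in it. At an unadjusted p under 0.05 it had 3 of the other Polycomb genes, against 7 in the main fit (edgeR). Over all genes that count was 1509, against 1377.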
